A study of Homo sapiens with 19 samples.

Results

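H3K27ac was examined at 10 genes of the STAT5 pathway in 4 human leukaemia cell lines. The genes are CISH, SOCS1, SOCS2, SOCS3, PIM1, PIM2, PIM3, OSM, STAT5A and STAT5B, chosen by name as feedback and survival genes that respond to FLT3 and BCR-ABL1 signalling, and all 10 were found among the 20007 protein-coding genes of GENCODE v44 (hg38). Acetylation of lysine 27 of histone H3 (H3K27ac) marks active promoters and enhancers. The peak lists record neither STAT5 binding nor expression, so the word "target" describes what is known of the genes and was not checked here.

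The 4 lists came from 1 library each. HL-60 and Molm13, both from acute myeloid leukaemia (AML), were untreated. OCI-AML3, also from AML, and K562, from chronic myeloid leukaemia, had been transduced with dCas9-KRAB, a catalytically dead Cas9 fused to a repressor, and with a vector carrying no sgRNA, and were sorted for both reporters. Vector and cell line therefore cannot be told apart. Molm13 carries an internal tandem duplication of the receptor FLT3, and K562 carries the BCR-ABL1 fusion kinase. As no line was replicated, no value below has a replicate error and no test between lines was made. Peak numbers were 20814 in HL-60 and 35206 in Molm13, with 37606 in OCI-AML3 and 37484 in K562, and the read depth behind them is unknown. Of the lineage markers looked up, a peak at a transcription start site (TSS) was found for 1, 1, 1 and 6 of 6 erythroid genes in HL-60, Molm13, OCI-AML3 and K562, for 6, 9, 9 and 3 of 9 myeloid genes, for 3, 2, 2 and 2 of 3 B cell genes, and for 0 of 3 T cell genes in each line.

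STAT5A and STAT5B are closely related transcription factors that are phosphorylated by JAK kinases, or directly by oncogenic kinases, then pair up and bind DNA at the so-called GAS motif, TTCNNNGAA, where N is any base. CISH and the SOCS genes encode SH2-domain proteins that bind activated receptors or JAK kinases and dampen the signal, forming a feedback loop. The PIM genes encode serine/threonine kinases that promote survival and protein synthesis and need no phosphorylation to be active. OSM encodes oncostatin M, a cytokine of the IL-6 family. In myeloid leukaemia, activated FLT3 and BCR-ABL1 are known to keep STAT5 phosphorylated.

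The 2 kb upstream of the canonical TSS held GAS motifs in 6 of the 10 members, against 43.1% of all protein-coding genes. Of the 4 genes shown here, only CISH has them wholly within the 300 bp around the TSS that are searched below. Stretches from CISH, SOCS2, PIM1 and PIM2, which show the arrangement of the motifs, are given first because the H3K27ac peaks are compared with them below. They were read from hg38 on the strand of the gene, 5′ to 3′, with TTCNNNGAA in capitals. The motif is its own reverse complement, so 1 search covers both strands. Other STAT proteins also bind it.

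The 2 pairs upstream of CISH lie at chr3:50611991-50612020 and chr3:50611876-50611905, minus strand. The first pair falls in an annotated UTR of MAPKAPK3, the divergent neighbour, and the second in an intron of that gene.
CISH distal pair: ccgttTTCCTGGAAagTTCTTGGAAatctg
CISH proximal pair: ggTTCTAGGAAgacgctgcTTCCGGGAAgg

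The SOCS2 pair lies at chr12:93570885-93570944, plus strand, in an intron of SOCS2 and in an exon of the antisense RNA SOCS2-AS1. The PIM1 and PIM2 stretches are intergenic, at chr6:37169199-37169258 (plus) and chrX:48919227-48919286 (minus).
SOCS2 pair: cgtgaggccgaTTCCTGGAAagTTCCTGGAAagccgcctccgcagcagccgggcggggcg
PIM1 site: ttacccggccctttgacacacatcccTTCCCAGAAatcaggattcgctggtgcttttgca
PIM2 site: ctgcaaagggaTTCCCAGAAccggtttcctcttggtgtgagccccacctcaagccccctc

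To ask in which lines the start sites were marked, a gene was counted when a peak lay within 500 bp of any of its annotated TSSs. All 10 members were marked in Molm13 and in OCI-AML3, against 54.0% and 57.7% of all protein-coding genes. In K562, 9 of the 10 were marked, against 56.0% of genes, and OSM was the exception. In HL-60, 5 of the 10 were marked, close to the 44.7% of all genes. CISH, SOCS1, PIM2 and PIM3 had a TSS peak in all 4 lines, which makes 4 of 10 members and lies close to the 40.5% of all genes with that pattern. SOCS2, SOCS3, PIM1, STAT5A and STAT5B were marked in Molm13, OCI-AML3 and K562 and not in HL-60, a pattern of 5 of the 10 members and of 7.16% of all genes. OSM had the pattern of the 3 AML lines without K562, found for 2.22% of all genes. The HL-60 list is also the shortest. Each list was then limited to its 20772 strongest peaks, the length of the HL-60 list on chromosomes 1 to 22, X and Y. Under this limit, 9 members were still marked in each of Molm13, OCI-AML3 and K562, against 5 in HL-60. The shares of all genes were 50.2%, 50.6% and 51.1% in the same order, against 44.7% for HL-60. The members that dropped out were STAT5A in Molm13 and SOCS3 in OCI-AML3.

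**Figure D1:**
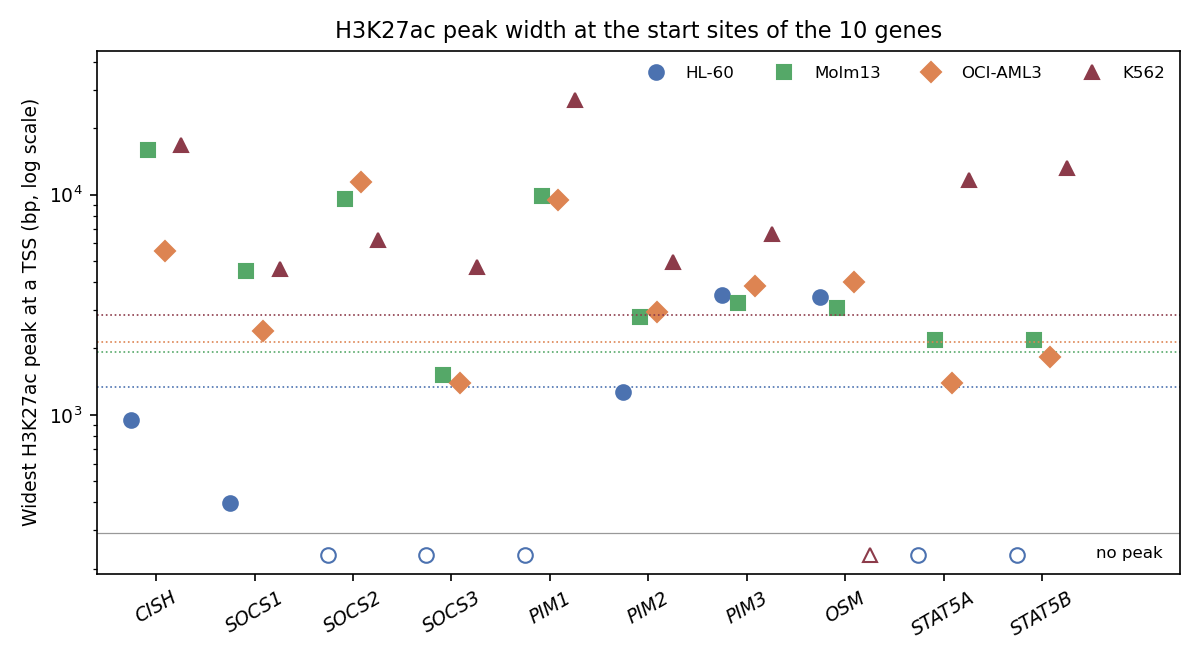
Width in bp (log scale) of the widest H3K27ac peak within 500 bp of a TSS of each of the 10 genes in HL-60, Molm13, OCI-AML3 and K562 (1 library each); open symbols at the bottom stand for genes with no such peak, and dotted lines give each line's median over all marked protein-coding genes. The K562 symbol is the highest for 8 genes, the 26962 bp peak of PIM1 is the widest of all, and the 5 open HL-60 symbols stand beside 1 open K562 symbol at OSM.

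Width and fold enrichment were then compared within each list. The fold enrichment is the ratio of the ChIP signal to the local background that the peak caller gave, and because the lists differ in scale, both measures were ranked among the marked protein-coding genes of the same list (a percentile of 100 being the widest or strongest). For a gene with several TSS peaks, the widest and the strongest were taken. The median TSS peak of a marked gene was 1343 bp wide in HL-60 and 1923 bp in Molm13, with 2140 bp in OCI-AML3 and 2850.5 in K562. The median width percentile of the marked members was 46.6 in HL-60 and 76.5 in Molm13, with 74.9 in OCI-AML3 and 87.6 in K562, where the median gene is at 50. In fold enrichment the members stood lower, with median percentiles of 36.1, 44.5, 37.7 and 68.8. Among the widest 10.0% of marked genes were 2 of 5 marked members in HL-60, 3 of 10 in Molm13, 3 of 10 in OCI-AML3 and 4 of 9 in K562. Among the strongest 10.0% were 0 of 5, 2 of 10, 0 of 10 and 3 of 9. By median percentile, the members were thus placed higher in width than in fold enrichment in each of the 4 lists. The lists hold broad peaks, for which the fold enrichment can be an average over the whole peak. A low rank of a wide peak therefore does not show a low height, and the 2 measures may not be independent. The TSS peak was widest in K562 for 8 of 10 members and in OCI-AML3 for 2, against 58.1% and 24.6% of the 12941 genes with a TSS peak in any line. It was widest in Molm13 or HL-60 for no member, against 14.2% and 3.07% of genes.

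CISH, the founding member of the feedback inhibitors, had the widest TSS peak of the CISH and SOCS genes in HL-60, Molm13 and K562. Its gene body spans chr3:50606489-50611774 on the minus strand. The TSS peak was 942 bp wide in HL-60 and 15859 bp in Molm13, with 5531 bp in OCI-AML3 and 16738 in K562. Molm13 and K562 were therefore close to each other and far above HL-60, with OCI-AML3 between them. The widths ranked at the 29.4th percentile in HL-60, the 99.3rd in Molm13, the 91st in OCI-AML3 and the 99.1st in K562. Fold enrichment was 4.42 in HL-60 and 12.4 in Molm13, with 3.64 in OCI-AML3 and 5.36 in K562, at percentiles of 33.9, 96.2, 37.3 and 99.2, so that the peak was among the strongest of its list in Molm13 and K562 and below the middle in HL-60 and OCI-AML3. In OCI-AML3 the TSS peak was followed by a separate peak of 8024 bp over the span that 1 peak covered in Molm13 and in K562, and the 2 peaks together covered 13555 bp there. The difference in width between OCI-AML3 and Molm13 thus depended on that gap, which joining peaks within 1 kb did not close. The same region holds start sites of MAPKAPK3, a kinase gene transcribed in the opposite direction, so the mark cannot be given to CISH alone.

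SOCS1, an inhibitor of JAK kinases, was marked in all 4 lines. Its TSS peak measured 397 bp in HL-60 and 4494 bp in Molm13, with 2396 bp in OCI-AML3 and 4583 in K562, at width percentiles of 6.2, 88.3, 56.7 and 74.1. The HL-60 peak was among the narrowest of its list and lay 154 bp from the TSS without covering it. Fold enrichment was 4.78, 5.16, 3.48 and 3.46 in the same order, at percentiles of 42.6, 31.9, 31.1 and 38.4. SOCS1 was therefore below the middle of every list in strength, also where its peak was wide.

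SOCS2, which limits signalling by growth hormone and other cytokine receptors, was the 1 member with an empty surrounding in HL-60. There, no peak lay within 50 kb of any of its 12 annotated TSSs, and the nearest was 101891 bp away. The TSS peak was 9512 bp wide in Molm13 and 11407 bp in OCI-AML3, with 6220 bp in K562, at percentiles of 97.9, 98 and 85.4. Fold enrichment was 9.49 in Molm13 and 3.89 in OCI-AML3, with 4.35 in K562, at percentiles of 85.1, 47 and 85.1. A second region, at chr12:93586879-93597375 and 14204 bp downstream of the canonical TSS, was marked over 10173 bp in Molm13 and 10264 bp in OCI-AML3, with 6801 in K562. These 2 regions held every peak near SOCS2 in the 3 lines.

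SOCS3, the inhibitor best known from IL-6 and G-CSF signalling, had peaks at its start in Molm13, OCI-AML3 and K562. They were 1510 bp wide in Molm13 and 1388 bp in OCI-AML3, with 4708 bp in K562, and none was found in HL-60, where the nearest lay 18787 bp away. The width percentiles were 34.9, 24.7 and 75.2, so the peak was wider than most only in K562, where it measured 7627 bp with peaks within 1 kb joined. Fold enrichment was 3.94, 2.36 and 3.68, at percentiles of 13, 2.59 and 51.6. In OCI-AML3 SOCS3 was thus among the weakest marked promoters, and with the q-value limit at 0.001 its TSS peak was lost in both Molm13 and OCI-AML3. Its surroundings were richer than its promoter. Within 50 kb lay 6 peaks in HL-60 and 12 in Molm13, with 10 in OCI-AML3 and 5 in K562. The widest shared region there, chr17:78377952-78390789, holds start sites of PGS1 and was marked in all 4 lines, over 3777 bp in HL-60 and 10621 bp in Molm13, with 8386 bp in OCI-AML3 and 2105 in K562. K562 was thus the narrowest line at this neighbour and the widest at the SOCS3 TSS.

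PIM1 had the widest peak of the 10 genes. Its body spans chr6:37170152-37175428 on the plus strand, and in K562 a single peak of 26962 bp covered it, at the 99.9th width percentile. The peak was 9863 bp wide in Molm13 and 9479 bp in OCI-AML3, at percentiles of 98 and 97.2, and no TSS peak was present in HL-60. In the same region a second stretch was acetylated downstream, bringing the marked bases to 24670 in Molm13 and 19371 in OCI-AML3, whereas HL-60 had 1 peak of 399 bp there, 10314 bp from the nearest PIM1 TSS. The 3 lines thus marked a stretch of similar extent, in 1 peak in K562, 2 in Molm13 and 4 in OCI-AML3. Fold enrichment at the TSS was 11.7 in Molm13 and 3.49 in OCI-AML3, with 4.94 in K562, at percentiles of 94.7, 31.8 and 96.6.

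PIM2 and PIM3 were marked in all 4 lines with narrower peaks. For PIM2 the widths were 1272 bp in HL-60 and 2773 bp in Molm13, with 2940 bp in OCI-AML3 and 4958 in K562, at percentiles of 46.6, 71.3, 69.1 and 77.5. For PIM3 they were 3491, 3210, 3827 and 6640 bp, at percentiles of 94, 77.6, 80.7 and 87.6. Of the 4 members marked in every line, PIM3 varied least in width, the widest peak being 2.07 times the narrowest, against 17.8 times for CISH. Fold enrichment of PIM2 was 4.5, 6.31, 3.65 and 3.36, and that of PIM3 4.68, 4.59, 3.93 and 3.11, in the same order of lines. None of these 8 values reached the strongest 10% of its list. The PIM2 peak in HL-60 lay 12 bp from the TSS and the PIM3 peak in K562 248 bp from it, so both stand only with a distance above 0 bp. With peaks required to cover a TSS, CISH was the 1 member marked in all 4 lines.

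OSM was the 1 member without a TSS peak in K562. Its widths of 3429 bp in HL-60 and 3046 bp in Molm13, with 3997 bp in OCI-AML3 differed by no more than 1.31 times, and they ranked at percentiles of 93.7, 75.4 and 82.2. Fold enrichment was 4.51, 8.91 and 4.82, at percentiles of 36.1, 81.1 and 79.7. In K562 the nearest peak lay 21591 bp away, at a start site of CASTOR1, and 2 peaks were present within 50 kb. In K562 OSM was thus like most of the myeloid marker genes, of which 3 of 9 had a TSS peak there, whereas the other 9 members were marked. CEBPA, CEBPE, MPO and ELANE shared its pattern of the 3 AML lines without K562, and the other myeloid markers did not.

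The 2 STAT5 genes lie side by side on chromosome 17, and their peaks are partly the same. STAT5A had a TSS peak of 2182 bp in Molm13 and 1387 bp in OCI-AML3, with 11624 in K562, at percentiles of 57.5, 24.6 and 97.1, and none in HL-60. Start sites of both genes are annotated in this region, chr17:42283266-42294889. At the canonical start of STAT5B the peaks were 1610 bp wide in Molm13 and 1833 bp in OCI-AML3, with 13190 bp in K562, so K562 was the widest line for both genes. By the rule of the widest peak at any TSS, STAT5B took the 2182 bp peak that it shares with STAT5A in Molm13. The STAT5A peak in Molm13 had a −log10 q-value of 2.07 and a fold enrichment of 3.47, at the 6.19th percentile, and was lost with the q-value limit at 0.001. In K562 fold enrichment was 3.99 for STAT5A and 5.32 for STAT5B, at percentiles of 68.8 and 99. A further K562 peak of 14665 bp began inside STAT5A and extended past its end to STAT3, the next gene. In this region the other 3 lines were marked over 969 to 3291 bp.

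**Figure D2:**
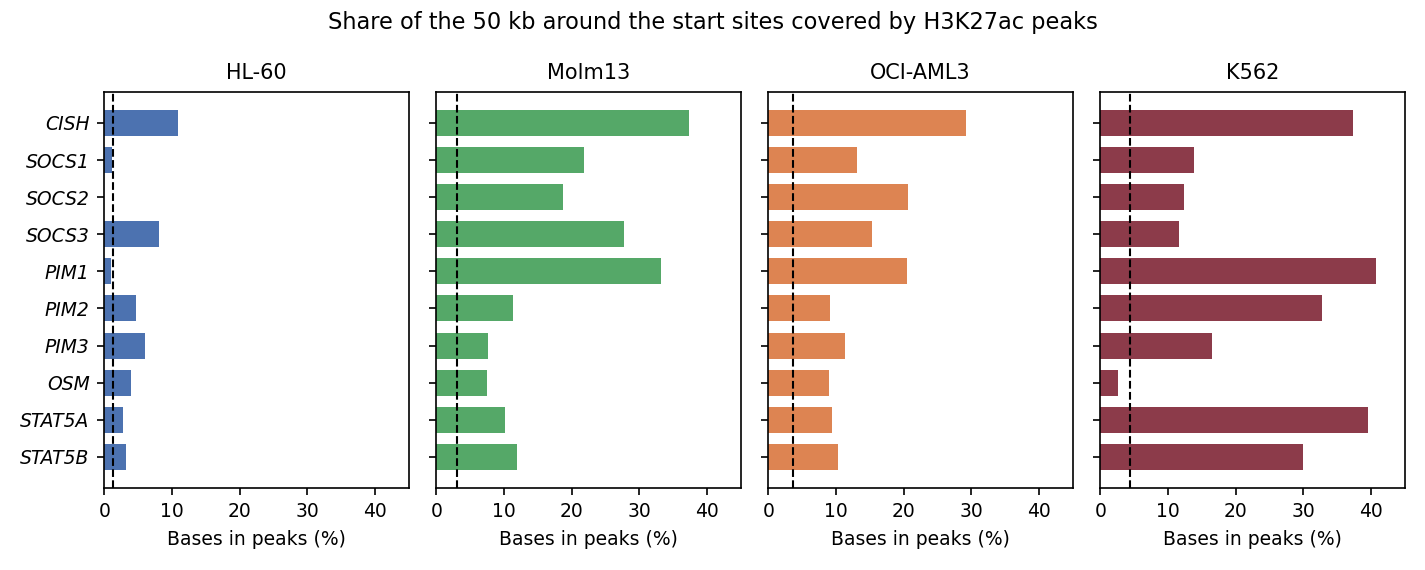
Percentage of the window of 50 kb to each side of every annotated TSS that was covered by H3K27ac peaks, for each of the 10 genes in HL-60, Molm13, OCI-AML3 and K562 (1 library each); dashed lines give the median over all protein-coding genes. CISH is at 10.9% in HL-60 and 37.3% in Molm13, with 29.2% in OCI-AML3 and 37.3% in K562, and OSM in K562 is at 2.69%.

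The wider surroundings were measured as the share of bases within 50 kb of a TSS that lay in peaks. At least 1 peak was present in this window for 9 of 10 members in HL-60 and for all 10 in Molm13, OCI-AML3 and K562, against 75.6%, 81.9%, 82.1% and 78.6% of genes. Counting a peak near several members once, 33 peaks lay near the members in HL-60 and 76 in Molm13, with 58 in OCI-AML3 and 64 in K562. The median number per gene was 3.5, 7.5, 5.5 and 7 for the members, against 2, 3, 3 and 3 for all genes. The median covered share of the members was 3.58% in HL-60 and 15.4% in Molm13, with 12.2% in OCI-AML3 and 23.2% in K562, where all genes had medians of 1.3%, 3.03%, 3.6% and 4.38%. As percentiles among all genes, the member medians were 77.5, 91.9, 87 and 92.9. CISH was at or above the 97.8th percentile in each list. PIM1 ranged from the 43.1st percentile in HL-60 to the 99.6th in Molm13 and in K562. STAT5A covered 39.6% of its window in K562 and 2.82 to 10.2% in the other lines. SOCS3 went the other way, with 27.8% in Molm13, the 99th percentile, and 11.6% in K562, the 78.1st.

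The peaks near STAT5A and STAT5B are largely shared because their windows overlap, and the window of STAT5B is 185217 bp long against 100004 bp for SOCS3. Within the STAT5B window alone lay 6 peaks in HL-60 and 20 in Molm13, with 12 in OCI-AML3 and 17 in K562. List length and peak width also differed between lines. With each list limited to its 20772 strongest peaks, 51 peaks lay near the members in Molm13 and 42 in OCI-AML3, with 47 in K562, against 33 in HL-60, so the gap to HL-60 was smaller and did not close. Peak numbers near all genes were not counted under this limit. The part of list length and peak width in the covered share was not tested.

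**Figure D3:**
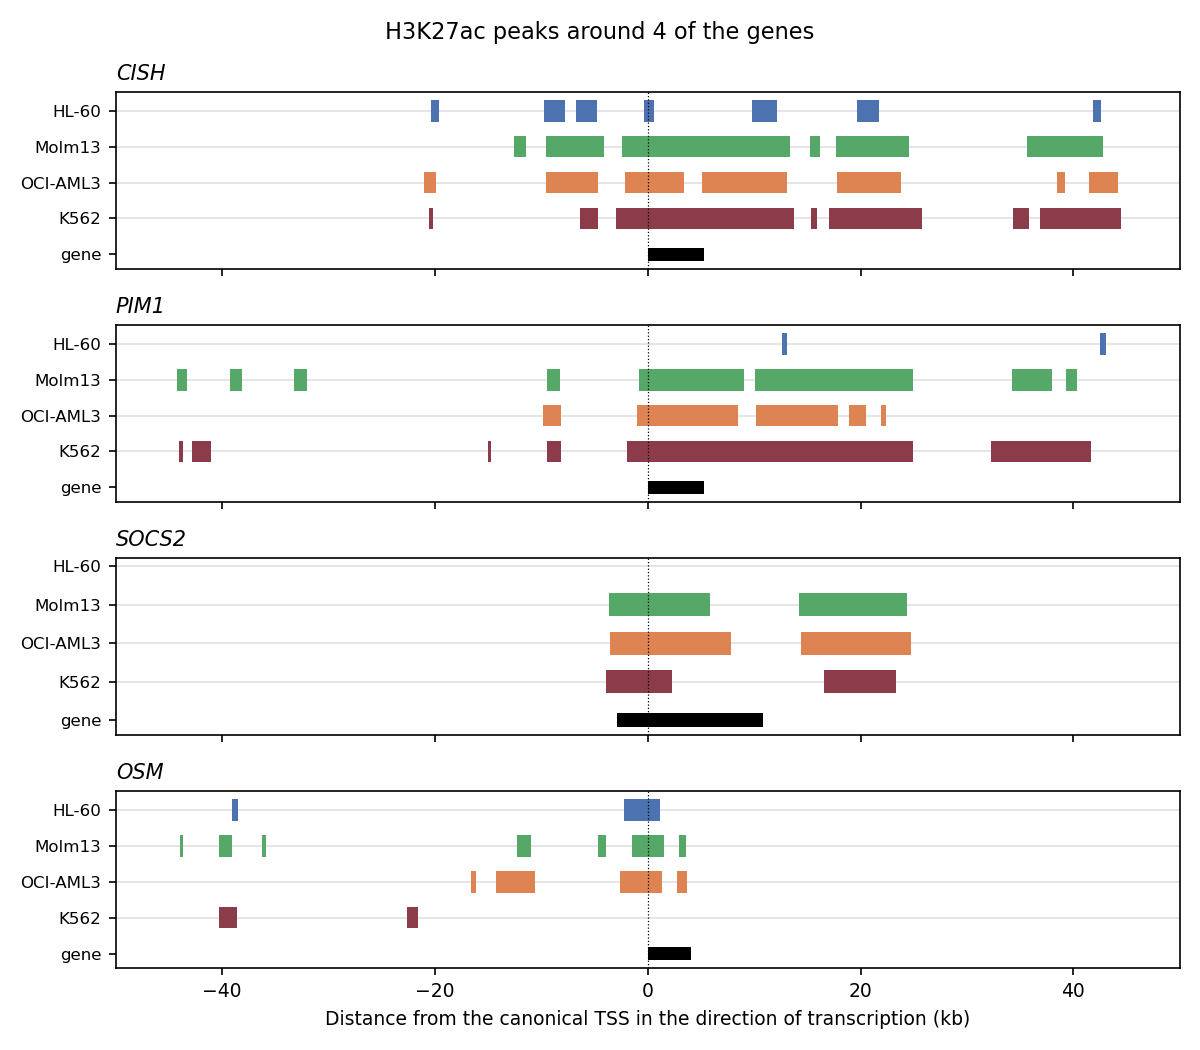
H3K27ac peaks (bars) in HL-60, Molm13, OCI-AML3 and K562 by distance from the canonical TSS in kb, in the direction of transcription, for CISH, PIM1, SOCS2 and OSM; the black bar is the annotated gene. Molm13, OCI-AML3 and K562 mark similar stretches at CISH, PIM1 and SOCS2, HL-60 has no bar at SOCS2, and K562 has no bar over OSM.

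To compare individual elements, overlapping peaks of the 4 lists were joined into regions. Near the members lay 95 regions, out of 58929 near all protein-coding genes. A peak in all 4 lines was found in 19 of the 95, or 20%, against 14.3% of all regions. Regions marked in 1 line made up 41.1% near the members and 60.8% near all genes, so that regions near the members were more often shared. They were also longer, with a median of 1716 bp against 1166 bp, and 25 of the 95 lay near STAT5B. The part of region length in this sharing was not tested. A peak in Molm13 was present in 68 regions (71.6%, against 46.6% of all), in K562 in 61 (64.2%, against 54%), in OCI-AML3 in 50 (52.6%, against 49.9%) and in HL-60 in 29 (30.5%, against 27%). Molm13 was thus the line whose share rose most above that of all regions.

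The combination of Molm13 and K562 without the other lines was looked at because these are the lines with the FLT3 and BCR-ABL1 lesions. It was found in 5 of 95 regions, or 5.26%, against 1.33% of all regions. Other rare combinations were also above their share of all regions. HL-60 with Molm13 only made up 2.11%, against 0.334%, and HL-60 with Molm13 and K562 1.05%, against 0.144%. OCI-AML3 with K562, HL-60 with OCI-AML3 and HL-60 with K562 were below theirs. The first of the 5 regions lies 15236 bp downstream of the CISH start at chr3:50595609-50596538. Its peaks were 930 bp wide in Molm13 and 539 bp in K562. Of the 2 near PIM1, the one at chr6:37125860-37126839 is 43313 bp upstream and held peaks of 980 and 414 bp. Its Molm13 peak had a −log10 q-value of 1.08 and is lost with q-values below 0.05, where the count stayed at 5 because a region near OSM, at a start site of TBC1D10A, took on the pattern when its HL-60 peak was lost. The other, chr6:37202418-37211844, is 32266 bp downstream and was the largest of the 5, marked over 4910 bp in Molm13 and 9427 bp in K562. The region near SOCS3, chr17:78353275-78355251, is 4826 bp downstream of its TSS and held 482 and 1977 bp. The one near PIM3, chr22:49944502-49946441, is 14331 bp upstream and held 1782 and 667 bp. None of the 5 contains an annotated TSS. Their fold enrichments were 2.73 to 3.82 in Molm13, where the median peak of the list had 3.8, and 2.37 to 3.51 in K562, where the median was 2.85. With lists of equal length 2 regions had the pattern, the larger PIM1 region and the region at the SOCS3 TSS, which had lost its OCI-AML3 peak. Joining peaks within 1 kb left 3. The share of all regions with the pattern was counted for the full lists only, so these smaller counts have no such share beside them. Regions shared by Molm13, OCI-AML3 and K562 were more numerous, 13 of 95 or 13.7%, against 5.36% of all regions, and they included the SOCS2, SOCS3, STAT5A and STAT5B start sites.

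**Figure D4:**
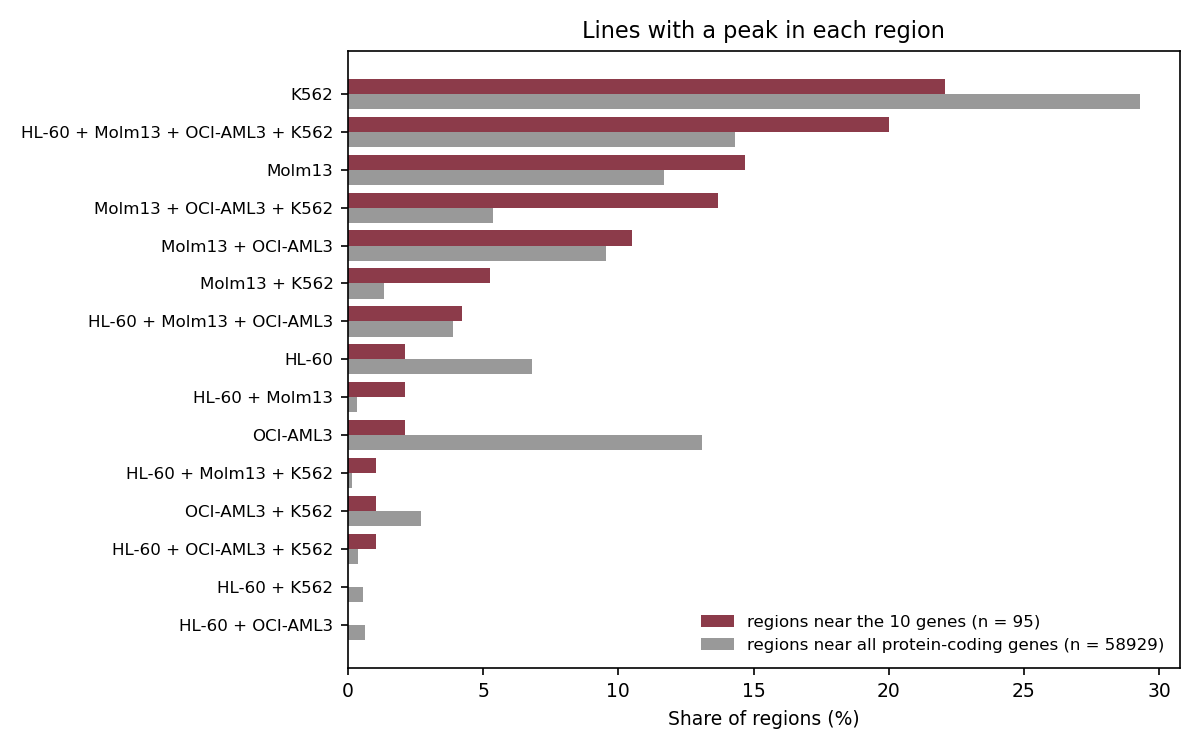
Share in % of H3K27ac regions with each combination of lines, for the 95 regions within 50 kb of the 10 genes and for the 58929 regions near all protein-coding genes. Near the 10 genes, all 4 lines (20%), Molm13 with OCI-AML3 and K562 (13.7%) and Molm13 with K562 (5.26%) take larger shares than near all genes. So do HL-60 with Molm13 (2.11%) and HL-60 with Molm13 and K562 (1.05%). OCI-AML3 alone (2.11%) and HL-60 alone (2.11%) take smaller ones.

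The GAS motifs were set against these peaks. In the 300 bp around the canonical TSS (250 bp before, 50 bp after), TTCNNNGAA occurred in 3 of 10 members, CISH, SOCS3 and OSM, and in 6.49% of the 20007 promoters of the same length. Only motifs lying wholly inside were counted, which left out the PIM2 motif centred at −247 bp. At least 2 motifs were found in CISH and OSM and in 0.36% of promoters. CISH held 4, a number reached by 4 genes in all, 0.02%. In the 2 kb upstream, the motif occurred in 6 of 10 members and in 43.1% of all genes. The stricter form TTCCNGGAA, a subset of the same matches, occurred there in CISH, SOCS2 and SOCS3 and in 5.87% of all genes.

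The 4 CISH motifs had their centres at −237, −226, −125 and −108 bp from the TSS, and all 4 lay inside the TSS peak of every line, including the 942 bp peak of HL-60. In this line the other 2 motifs upstream of CISH, at −765 and −1673 bp, lay outside the peak, whereas Molm13, OCI-AML3 and K562 covered all 6. In SOCS2 the motif pair stood at −1775 and −1764 bp from the canonical TSS, which is 80 and 69 bp upstream of another annotated TSS of the gene. It was covered in Molm13, OCI-AML3 and K562 and not in HL-60. The centres are 11 bp apart in this pair and in the distal CISH pair, with 2 bases between the motifs. This spacing was noticed in the sequences and counted afterwards, and it was found in the 2 kb upstream of 10 genes, or 0.05%, of which CISH and SOCS2 are the members. The others were BCL7A, GRIN2B, HBS1L, MZT2B, OR2M2, SCG3, SLC6A13 and STK32A.

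The PIM1 motif at −923 bp lay in the peaks of OCI-AML3 and K562 and just outside that of Molm13. Of the 3 motifs upstream of PIM2, those at −247 and −427 bp were covered in Molm13, OCI-AML3 and K562. The one at −932 bp was covered in Molm13 and K562 only. In HL-60 the PIM2 peak lay downstream of all 3. The 4 motifs upstream of OSM lay in the peaks of HL-60, Molm13 and OCI-AML3 and in none of K562. The 2 upstream of SOCS3 were covered in Molm13, OCI-AML3 and K562 and not in HL-60. The motif was not found in the 2 kb upstream of SOCS1, PIM3, STAT5A or STAT5B, although SOCS1 and PIM3 were marked in all 4 lines. Over whole regions, the motif density was 0.39 per kb near the members and 0.333 per kb near all genes. A motif occurred in 44.2% of regions near the members and in 38% of those near all genes. The regions near the members were longer, with a median of 1716 bp against 1166 bp. The stricter form had 0.0645 per kb near the members and 0.0331 per kb near all genes. A match describes the letters and is not a measured STAT5 site.

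**Figure D5:**
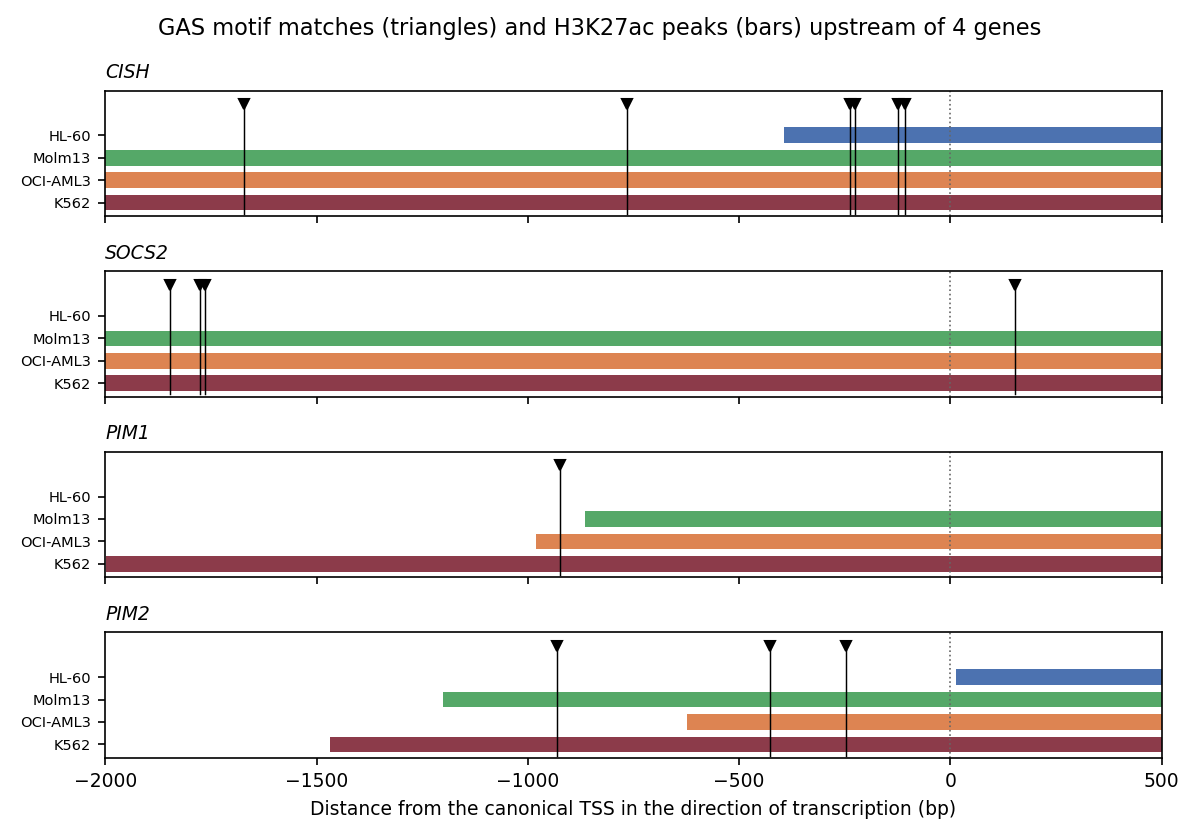
Positions of TTCNNNGAA matches (triangles, drawn down as lines) and H3K27ac peaks (bars) in HL-60, Molm13, OCI-AML3 and K562 from 2 kb upstream to 500 bp downstream of the canonical TSS in bp, for CISH, SOCS2, PIM1 and PIM2. At CISH the 4 matches nearest the TSS cross the bars of all 4 lines, and at SOCS2 and PIM1 the HL-60 row is empty.

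Other genes of the pathway had a TSS peak in all 4 lines in 27 of 41 cases, against 4 of the 10 members and 40.5% of all protein-coding genes. Of these 41 other receptors, kinases, STATs, SOCS genes, responders and negative regulators, 32 had a TSS peak in HL-60 and 35 in Molm13, with 36 in OCI-AML3 and 34 in K562. The shares of all protein-coding genes were 44.7%, 54.0%, 57.7% and 56.0% in the same order. In 1 to 3 lines 12 of the 41 were marked. The median width percentiles of the marked ones among the 41 were 56.2, 70.3, 66.1 and 56, against 46.6, 76.5, 74.9 and 87.6 for the marked members. The other pathway genes thus stood above the members in HL-60 and below them in Molm13, OCI-AML3 and K562, with the widest gap in K562. Among the widest 10% of their list were 8 of 32 in HL-60, 7 of 35 in Molm13, 4 of 36 in OCI-AML3 and 5 of 34 in K562.

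Among the receptors and kinases, FLT3 itself had TSS peaks of 920 bp in HL-60 and 11765 bp in Molm13, with 12765 bp in OCI-AML3, and none in K562. Molm13 and OCI-AML3 were thus close in width at this gene. KIT, the stem cell factor receptor, was marked in HL-60 with 857 bp. CSF2RB, the shared receptor chain of IL-3 and GM-CSF, had 806 bp in HL-60 and 418 bp in Molm13, with 1265 bp in OCI-AML3. CSF3R, the G-CSF receptor, had 5047 bp in Molm13 and 2020 bp in OCI-AML3, with 906 in K562. JAK3 was marked in K562 with 638 bp. BCR, the fusion partner of ABL1 in K562, had 2010 bp in HL-60, 763 bp in OCI-AML3 and 2432 in K562. Apart from FLT3 in Molm13 and OCI-AML3, CSF3R in Molm13 and BCR in HL-60, these peaks ranked below the middle of their list in width.

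Of the other SOCS genes, SOCS6 was marked in OCI-AML3 with 996 bp and in K562 with 1436 bp, and SOCS4, SOCS5 and SOCS7 in every line. Among the responders, IL2RA was marked in Molm13 with 1984 bp. The cell cycle inhibitor gene CDKN1A had 4649 bp in Molm13 and 4607 bp in OCI-AML3, with 871 in K562, whereas ID1, a regulator of differentiation, had 457, 2301 and 9334 bp in the same lines. These 2 genes were ordered in opposite ways and both lacked a TSS peak in HL-60, as SOCS2, SOCS3, PIM1, STAT5A and STAT5B did. DUSP6, a phosphatase acting on ERK, was marked in the 3 AML lines with 3665 bp in HL-60 and 3338 bp in Molm13, with 5041 bp in OCI-AML3. PIAS3, an inhibitor of STAT proteins, had 292 bp in Molm13 and 1383 bp in OCI-AML3, with 1462 in K562.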

How the data were processed

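Peak lists of 4 H3K27ac ChIP-seq libraries were analysed, out of 19 samples in 16 groups, with samples grouped by their titles. The authors trimmed reads with Trim Galore (0.4.5), aligned them to hg38 with Bowtie2 (2.3.4 in the submitters' processing notes), kept uniquely mapped reads and called broad peaks with MACS2 (2.1.1) at a stated q of 0.05. The control library used is not given in the sources used here. The deposited lists give for each peak a score, the fold enrichment (a ratio over local background), and the −log10 p-value and −log10 q-value. The largest q-value in a list was 0.0947 to 0.0995. Multiply mapping reads were dropped, which lowers signal in repeats.

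The members and gene lists were chosen with earlier results of these data known. Named were all 10 members, those of the 41 other pathway genes marked in 1 to 3 lines, and the 5 genes most like CISH in covered bases. Peaks on chromosomes 1 to 22, X and Y were compared with GENCODE v44 start sites, with overlaps of at least 1 bp and 1-based coordinates. Read depth was not given, so no interval is reported. With 1 library per line no test was made. Python 3.11.15, NumPy 2.4.6, pandas 2.3.3 and matplotlib 3.10.9 were used, and overlap counts were checked against bedtools and tested on simulated data. Alternatives varied the TSS distance, transcript, window, overlap, merging and peak limit. Some items are not reported here.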

Additional observations from a re-analysis of the deposited data

How the results depend on the processing

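Of 124 alternative values for 19 counts, 114 stayed within 1.5 times the reported one and 10 did not. Requiring peaks to cover a TSS (0 bp) left 3 members marked in HL-60 and 1 in all 4 lines. A q-value below 0.001 left 18 peaks within 50 kb of a member in HL-60, 37 in Molm13 and 39 in K562, and gave 2 regions marked in Molm13 and K562 only. A window of 25 kb left 50 peaks in Molm13 and 3 such regions. Joining peaks within 1 kb left 3 such regions, and lists of equal length gave 2. Each of these settings uses fewer or longer peaks or a shorter window by construction. No alternative moved the number of members with a TSS peak in Molm13, OCI-AML3 or K562, or among the widest or strongest 10% of any list, by more than 1.5 times. Changes at this limit occurred among the widest 10%. In K562 the count went from 4 to 6 with peaks within 1 kb merged. In OCI-AML3 it went from 3 to 2 with lists of equal length. With a q-value below 0.001, 8 members were still marked in Molm13, 9 in OCI-AML3, 9 in K562 and 5 in HL-60, against 47.4%, 53.3%, 49.5% and 36.2% of genes. Depth is unknown, so a peak that is missing in HL-60 may lie below what that library could detect. No paired analysis was possible because no line had a second list, and no result comes from a test.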

Other observations

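The 5 protein-coding genes whose covered share within 50 kb was most like that of CISH over the 4 lists, as percentiles within each list, were RXFP4, LSM4, H4C7, MYB and H1-3, leaving out genes within 100 kb of a CISH start. For CISH the percentiles were 97.8 in HL-60 and 99.8 in Molm13, with 99.1 in OCI-AML3 and 99.3 in K562. For RXFP4, the closest, they were 97.3, 99.4, 99.2 and 99.1, and for MYB, which encodes a transcription factor of blood progenitors, 97.6, 99.8, 99.9 and 98.7. H4C7 and H1-3 are histone genes. CISH was thus among genes covered to the top few percent in each line, including HL-60, although its own TSS peak in HL-60 was narrow.

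The list of dCas9 peaks from K562 cells carrying LTR2B sgRNAs had 0 peaks within 50 kb of any of the 10 genes. The nearest dCas9 peak to a member start lay 508239 bp from STAT5B, and the farthest of the 10 nearest distances was 11606693 bp, at CISH.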
